A study of Mus musculus with 17 samples.

Results

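Glucose entry into skeletal muscle was followed through 8 genes, listed by name for their role, with earlier results of these data known: the transporters Slc2a1, Slc2a3 and Slc2a4, the hexokinases Hk1 and Hk2, the traffic regulators Tbc1d1 and Tbc1d4, and Txnip. All 8 were measured, among 19938 genes tested. The samples were skeletal muscle of 17 male wildtype C57BL/6N mice aged 5 to 6 months, with 1 array a mouse. The STZ, BEZ group (n = 5) had received streptozotocin (STZ), a toxin that destroys the insulin-producing beta cells, and from 2 weeks later a diet with bezafibrate (BEZ), an activator of the peroxisome proliferator-activated receptors, for 8 weeks. The STZ, SD group (n = 5) had received streptozotocin and the standard diet (SD), and the Con, SD group (n = 7) had been mock-injected with citrate buffer and ate the standard diet. The labels give 65 mg/kg streptozotocin on each of 5 days at an age of 10 to 16 weeks, and chow with 0.25% or 0.5% bezafibrate. They do not assign a strength to each mouse, so both strengths form 1 group here. The methods text of the study names a smaller dose of streptozotocin, the stronger bezafibrate chow alone and controls without treatment. The name of the muscle is not stated in the sources used here.

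As background, glucose enters a muscle fibre through facilitative transporters and is trapped inside by hexokinases, which turn it into glucose 6-phosphate. GLUT4, the product of Slc2a4, is the insulin-responsive transporter of muscle and fat; it waits in vesicles inside the cell and moves to the surface after insulin or contraction. TBC1D4 (also called AS160) and TBC1D1 are related proteins that hold these vesicles back by keeping Rab proteins inactive, until kinases such as AKT and AMPK phosphorylate them. GLUT1 (Slc2a1) and GLUT3 (Slc2a3) serve basal uptake in many cell types. TXNIP, an arrestin-domain protein that binds thioredoxin, lowers glucose uptake by drawing transporters off the surface, and its gene is switched on by glucose. The arrays measured RNA only, not protein or the place of GLUT4 in the cell.

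Values are log2 expression values, in which 1 unit is a doubling, and changes are log2 differences ± SE with limma's Benjamini-Hochberg adjusted p, called at under 0.1. Levels were not compared between probe sets of different genes. The markers of skeletal muscle fibres fitted the label, with a mean level of 13.3 on every STZ, BEZ array, 13.2 to 13.4 in STZ, SD and 13.1 to 13.4 in Con, SD. Arrays of a group correlated at 0.993 to 0.995 in STZ, BEZ, 0.988 to 0.996 in STZ, SD and 0.959 to 0.995 in Con, SD. Con, SD array 1 stood apart, with a mean level of 9 hepatocyte markers of 11.7, when the next highest array had 9.86. Its mean level of 12 testis genes (listed once the values were known) was 8.38, when the next highest had 5.69. The slow fibre markers varied within every group, between 8.85 and 10.3 in STZ, BEZ, between 7.33 and 9.99 in STZ, SD and between 7.42 and 9.63 in Con, SD. Of 5 markers of Schwann cells and nerve, 4 were higher in STZ, SD than in Con, SD, with a mean level of 6.52 to 6.69 in STZ, BEZ, 6.65 to 6.77 in STZ, SD and 6.35 to 6.62 in Con, SD. Fewer markers passed in that comparison on the lists of fast fibres (2 of 10, lower), slow fibres (1 of 9, lower), adipocytes (1 of 7, lower), hepatocytes (1 of 9, lower), red cells (0 of 3) and macrophages and leukocytes (0 of 9). The slow fibre marker that passed was Mb. The median log2 difference of all 9 slow fibre markers was 0.34 in that comparison and 0.93 in STZ, BEZ against Con, SD. In both, 0 of the 9 passed as higher. The part of any of these in the results was not tested, beyond fits with the hepatocyte or the slow fibre level and without Con, SD arrays 1, 3 and 4, which an earlier analysis of these data had named. The number of arrays limits the precision, and p-values weigh a difference against the spread between these mice only.

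Of the 8 genes, 4 changed in diabetic muscle. In STZ, SD against Con, SD, Slc2a4 and Hk2 fell, and Tbc1d4 and Txnip rose. The background was high, because 25.8% of all 19938 genes passed the same test in this comparison, 11.9% lower and 13.9% higher. In STZ, BEZ against STZ, SD 0 of the 8 passed, against 0.0201% of all genes (4 genes). SAM, the test named in the methods, also called 0 of the 8 there, and 24 of all 19938 genes. At limma's unadjusted p under 0.05, Slc2a4 and Hk2 passed there, against 5.69% of all genes. In STZ, BEZ against Con, SD 1 of the 8 passed, Tbc1d4, against 21.6% of all genes, 13.1% higher and 8.45% lower. These comparisons share groups, so their values are not independent of each other. In whole muscle, fewer cells of a type and less RNA per cell cannot be told apart.

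**Figure D1:**
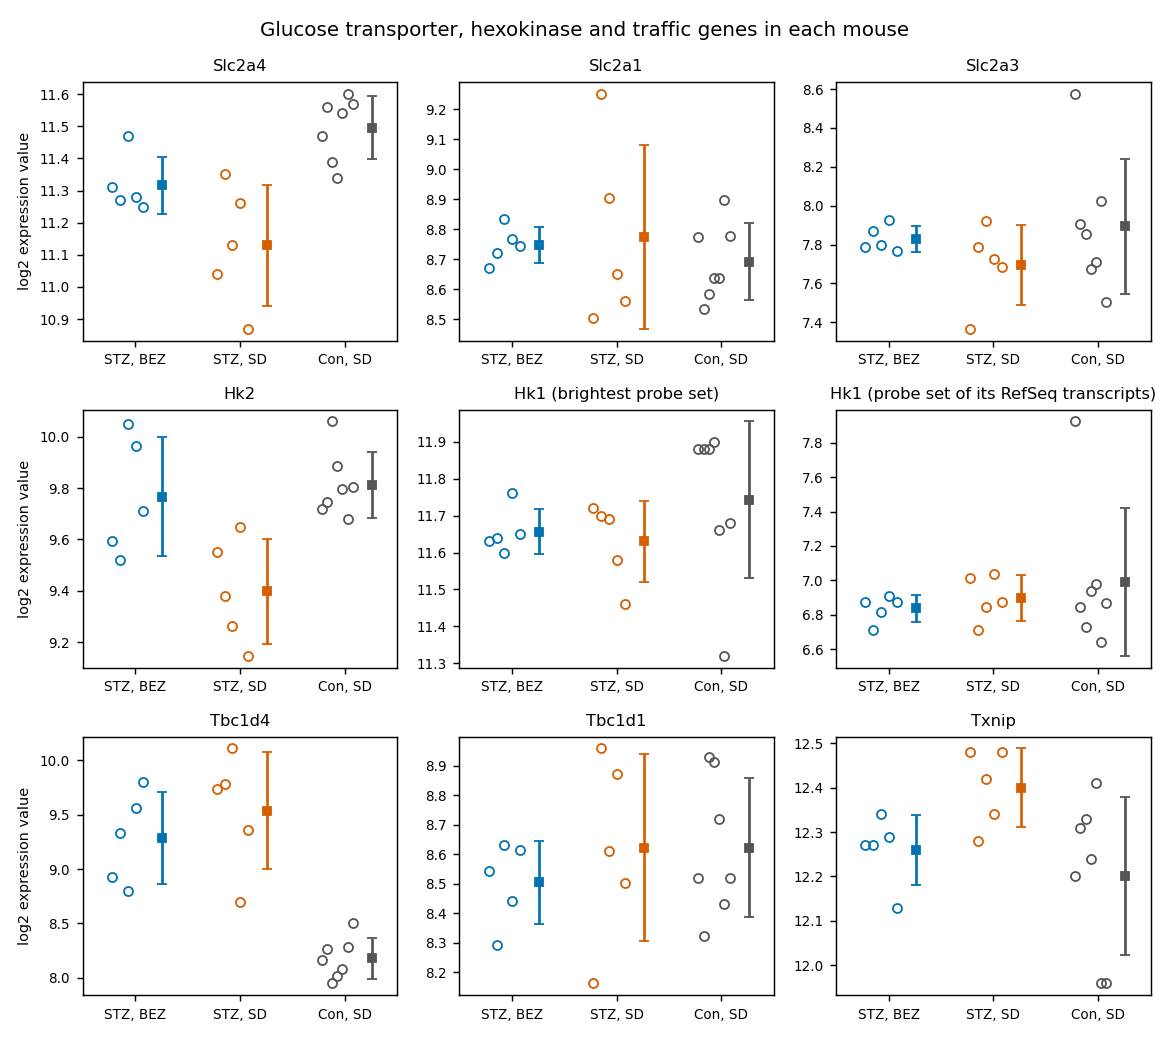
Log2 expression value (vertical axis, a separate scale in each panel) of each gene in each mouse, with STZ, BEZ, STZ, SD and Con, SD from left to right; circles are mice and squares with bars are means ± SD. Tbc1d4 lay above every Con, SD mouse in both STZ groups, and Hk2 in STZ, SD lay below every Con, SD mouse.

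The promoters of the called genes are shown because their letters differ in which known motifs they hold. RefSeq's promoter table (GRCm38.p6) held 6 of the 8 genes, and Slc2a3 and Slc2a4 were not in it. The printed windows are the 250 bases before the start given there, 5′ to 3′ on the gene's strand, at chr3:96557707-96557956 (plus strand) for Txnip, chr6:82774455-82774704 (minus strand) for Hk2 and chr14:101609192-101609441 (minus strand) for Tbc1d4. The start used for Tbc1d4 lies inside the annotated gene, whose 5′ limit is 101609281. Part of the Tbc1d4 window, with its marked GC box, is therefore within the gene. Capitals mark matches on either strand.
Txnip: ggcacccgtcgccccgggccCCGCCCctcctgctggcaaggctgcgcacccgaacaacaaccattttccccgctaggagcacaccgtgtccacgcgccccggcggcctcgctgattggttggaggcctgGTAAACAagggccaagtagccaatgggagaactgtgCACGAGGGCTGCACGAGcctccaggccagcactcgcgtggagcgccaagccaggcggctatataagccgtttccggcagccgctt
Hk2: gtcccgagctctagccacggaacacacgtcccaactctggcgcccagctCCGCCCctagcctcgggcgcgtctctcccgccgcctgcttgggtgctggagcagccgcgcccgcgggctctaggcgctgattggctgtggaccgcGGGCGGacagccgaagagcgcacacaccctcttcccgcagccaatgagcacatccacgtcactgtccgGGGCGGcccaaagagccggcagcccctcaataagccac
Tbc1d4: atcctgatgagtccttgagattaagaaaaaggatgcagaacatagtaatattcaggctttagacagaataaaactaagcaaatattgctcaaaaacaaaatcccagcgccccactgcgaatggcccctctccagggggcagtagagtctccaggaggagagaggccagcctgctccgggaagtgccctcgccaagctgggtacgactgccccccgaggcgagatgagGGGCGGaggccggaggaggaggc
The motifs searched were the E-box CACGTG, the carbohydrate response pair (CACGNG, then any 5 bases, then CACGNG, either of which may itself be an E-box), the FoxO motif GTAAACA, the GC box GGGCGG bound by Sp1, the MEF2 motif (CTA, then any 4 bases, then TAG) and the sterol response motif TCACNCCAC. The Txnip window held the carbohydrate response pair, which begins at position -85 from the start and stood in 15 of 32851 promoter windows (0.0457%). It also held a FoxO motif (3.17% of windows), which begins at position -121, and a GC box (32.7% of windows). The Hk2 window held 3 GC boxes and the Tbc1d4 window 1. E-box, MEF2 and sterol response motifs, which stood in 6.02%, 3.2% and 1.05% of windows, were at 0 matches in these 3. A match is a description of the letters only.

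Slc2a4 fell in diabetic muscle. Its values were 11.31, 11.27, 11.47, 11.28 and 11.25 in STZ, BEZ and 11.04, 11.35, 11.13, 11.26 and 10.87 in STZ, SD, and the Con, SD mice ran from 11.34 over a median of 11.54 to 11.6. The STZ, SD mice were the lowest group, and only the highest of them reached into the Con, SD range. STZ, SD averaged 11.13 ± 0.19 and Con, SD 11.49 ± 0.10 (SD, n = 5 and 7), a difference of -0.36 ± 0.08 (95% interval -0.52 to -0.20, adjusted p = 0.00291), or 1.29-fold lower. STZ, BEZ averaged 11.32 ± 0.09 (SD, n = 5), which lies between both other groups. Its difference from STZ, SD was 0.19 ± 0.08 (interval 0.01 to 0.36), which was within the unadjusted limit (limma's unadjusted p = 0.0349) and far from the adjusted one (adjusted p = 0.867). Against Con, SD it was -0.18 ± 0.08 (interval -0.34 to -0.02, adjusted p = 0.129), and this call changed in 6 alternatives. It passed without Con, SD array 4 (-0.20, adjusted p = 0.0936), without STZ, SD array 5 (-0.18, adjusted p = 0.092) and without STZ, BEZ array 3 (-0.22, adjusted p = 0.0902). It also passed without Con, SD arrays 1, 3 and 4 (-0.25, adjusted p = 0.0712), with only both groups in the fit and with array weights.

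Slc2a1 and Slc2a3 did not pass in any comparison. Slc2a1 had 8.67, 8.72, 8.83, 8.77 and 8.75 in STZ, BEZ, 8.51, 9.25, 8.90, 8.65 and 8.56 in STZ, SD, and 8.54 to 8.90 with a median of 8.64 in Con, SD. One STZ, SD mouse, array 2, lay above all others. The difference between STZ, SD and Con, SD was 0.08 ± 0.10 (interval -0.13 to 0.30, adjusted p = 0.612), so a change of Slc2a1 as large as the fall of Slc2a4 lies outside the interval. Endothelial cells are known to express Slc2a1, and the mean level of the endothelial markers was 8.98 to 9.08 in STZ, BEZ, 8.89 to 9.13 in STZ, SD and 8.65 to 8.91 in Con, SD, with 4 of 9 markers higher in STZ, SD and 0 lower. Their part in the Slc2a1 values was not tested.

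Slc2a3 had 7.79, 7.87, 7.80, 7.93 and 7.77 in STZ, BEZ, 7.37, 7.79, 7.92, 7.73 and 7.68 in STZ, SD, and 7.51 to 8.57 with a median of 7.86 in Con, SD. Its highest value, 8.57, came from Con, SD array 1, the array with the high hepatocyte and testis levels, whose part in this value was not tested. The differences were -0.20 ± 0.14 for STZ, SD against Con, SD (adjusted p = 0.335), 0.13 for STZ, BEZ against STZ, SD (adjusted p = 0.991) and -0.06 for STZ, BEZ against Con, SD (adjusted p = 0.791). Of the 9 other facilitative transporters, Slc2a8 (GLUT8, an intracellular transporter) rose in STZ, SD against Con, SD by 0.26 ± 0.08 (adjusted p = 0.0281) and in STZ, BEZ against Con, SD by 0.28 ± 0.08 (adjusted p = 0.0237). That is 11.1% of this list, against 25.8% and 21.6% of all genes. The other 8 did not pass, among them Slc2a12 (0.10 ± 0.07 in STZ, BEZ against Con, SD, adjusted p = 0.389) and Slc2a2, the liver transporter, whose highest value of 8.30 was again Con, SD array 1.

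Hk2, the hexokinase that insulin induces in muscle, fell in STZ, SD. Its values were 9.59, 9.52, 10.05, 9.96 and 9.71 in STZ, BEZ and 9.55, 9.38, 9.26, 9.65 and 9.15 in STZ, SD, and Con, SD ran from 9.68 over a median of 9.80 to 10.06. Every STZ, SD mouse was below every Con, SD mouse, which held for 8.3% of all genes in either direction and for 3.43% in this one. STZ, SD averaged 9.40 ± 0.21 and Con, SD 9.81 ± 0.13 (SD, n = 5 and 7), and the difference of -0.42 ± 0.10 (interval -0.63 to -0.20, adjusted p = 0.00863) is 1.33-fold lower. STZ, BEZ averaged 9.77 ± 0.23 (SD, n = 5), 0.37 ± 0.11 above STZ, SD (interval 0.14 to 0.60) and 0.05 ± 0.10 below Con, SD (-0.05, adjusted p = 0.796). The difference between STZ, BEZ and STZ, SD had limma's unadjusted p = 0.00361 but an adjusted p = 0.778, and both groups overlapped.

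**Figure D2:**
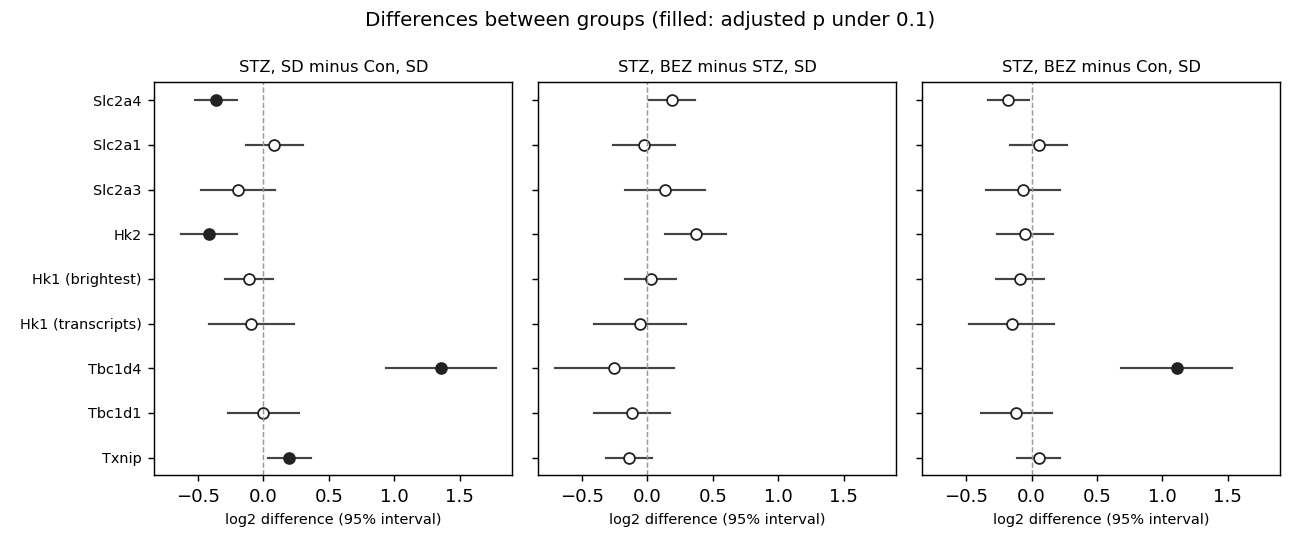
Log2 difference (horizontal axis) of each gene with its 95% interval from limma, in STZ, SD minus Con, SD, STZ, BEZ minus STZ, SD and STZ, BEZ minus Con, SD from left to right; filled points passed at an adjusted p under 0.1. Slc2a4, Hk2, Tbc1d4 and Txnip passed in the first, 0 genes in the second and Tbc1d4 in the third.

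Hk1, the hexokinase present in most tissues, could not be read from its brightest probe set. Where a gene had several probe sets the brightest was used, and for Hk1 this set (mean 11.68) carries a single sequence accession, which also stands on all 16 probe sets listed under both Rpl17, a ribosomal protein gene, and Hk1. Over the 17 arrays it followed the mean of those 16 (Pearson r = 0.849, Spearman rho = 0.833). The probe set that carries the Hk1 RefSeq transcripts (8 accessions, mean 6.92) did so much less (r = 0.171, rho = 0.255). The brightest set gave 11.63, 11.64, 11.60, 11.76 and 11.65 in STZ, BEZ, 11.72, 11.70, 11.69, 11.58 and 11.46 in STZ, SD, and 11.32 to 11.90 with a median of 11.88 in Con, SD, with -0.11 ± 0.09 for STZ, SD against Con, SD (adjusted p = 0.397). Without Con, SD array 6, the lowest, that difference was -0.18 and passed (adjusted p = 0.0606). The transcript set gave 6.87, 6.71, 6.82, 6.91 and 6.88 in STZ, BEZ, 7.01, 6.71, 6.84, 7.04 and 6.88 in STZ, SD, and 6.64 to 7.93 with a median of 6.87 in Con, SD. Its highest value was again Con, SD array 1, and its difference between STZ, SD and Con, SD was -0.09 ± 0.16 (adjusted p = 0.714).

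**Figure D3:**
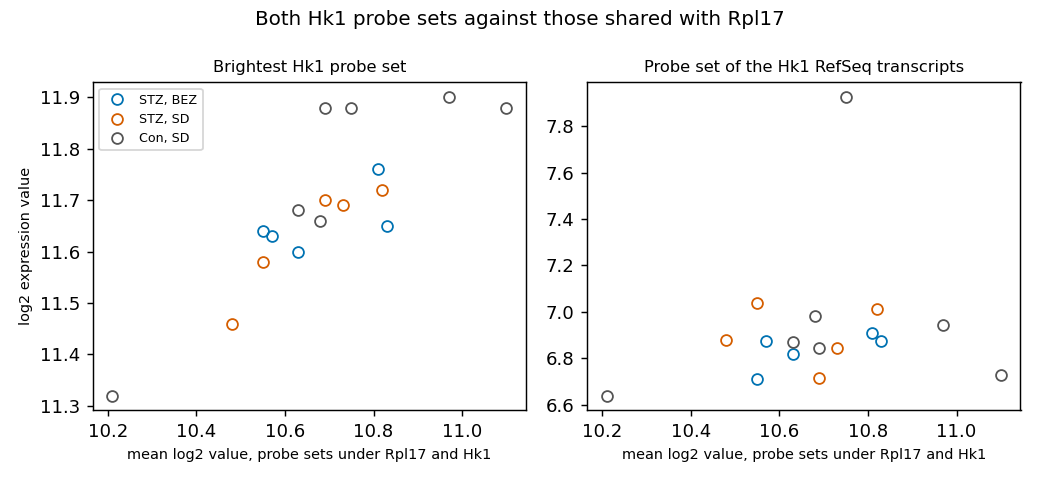
Log2 expression value of the brightest Hk1 probe set (left) and of the probe set of the Hk1 RefSeq transcripts (right) on the vertical axes, against the mean log2 value of the 16 probe sets listed under Rpl17 and Hk1; each circle is a mouse, coloured by group. The left set rises with that mean (r = 0.849), and on the right the point at 7.93 is Con, SD array 1.

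Among the 9 other measured genes of hexose phosphorylation and glucose 6-phosphate handling, Pgm2 rose and Pgm1 fell in STZ, SD against Con, SD (22.2% called, against 25.8% of all genes). Both encode phosphoglucomutases, which move phosphate between positions of glucose. Pgm2 differed by 0.27 ± 0.08 (adjusted p = 0.0263) and Pgm1 by -0.28 ± 0.11 (adjusted p = 0.08). The Pgm1 call ended without any 1 of Con, SD arrays 2, 3, 5 and 6 or STZ, SD arrays 2 and 3, with adjusted p up to 0.241 and differences of -0.27 to -0.17. The Pgm2 call ended without Con, SD arrays 1, 3 and 4 (0.17, adjusted p = 0.183). Pgm2 (0.31 ± 0.08, adjusted p = 0.014) and Gfpt2 (0.42 ± 0.14, adjusted p = 0.0474), an entry enzyme of the hexosamine pathway, rose in STZ, BEZ against Con, SD, and Gfpt2 no longer passed without STZ, BEZ array 2, where it was 0.28 (adjusted p = 0.147), and Pgm2 without Con, SD arrays 1, 3 and 4 (0.21, adjusted p = 0.105). With the hepatocyte level in the fit neither passed (Gfpt2 0.36, adjusted p = 0.154, and Pgm2 0.23, adjusted p = 0.106), and 6 of 9 hepatocyte markers were lower in STZ, BEZ than in Con, SD. Hk3, a hexokinase of leukocytes, did not pass (0.14 ± 0.06, adjusted p = 0.123, in STZ, SD against Con, SD).

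Tbc1d4 had the largest difference of the 8 genes. Its values were 8.92, 9.34, 8.80, 9.56 and 9.80 in STZ, BEZ and 9.73, 9.79, 10.11, 8.70 and 9.36 in STZ, SD, whereas Con, SD ran from 7.95 over a median of 8.16 to 8.50. All 10 mice given streptozotocin lay above all 7 controls, and they also spread more widely than the controls did. STZ, SD averaged 9.54 ± 0.54 and Con, SD 8.18 ± 0.19 (SD, n = 5 and 7), a rise of 1.36 ± 0.20 (interval 0.94 to 1.78, adjusted p = 0.000196), or 2.57-fold. STZ, BEZ averaged 9.28 ± 0.42 (SD, n = 5), 1.11 ± 0.20 above Con, SD (interval 0.68 to 1.53, adjusted p = 0.00154), or 2.15-fold. Groups did not overlap upward for 4.87% of all genes in STZ, SD against Con, SD and for 6.01% in STZ, BEZ against Con, SD. The difference between STZ, BEZ and STZ, SD was -0.25 ± 0.22 (interval -0.71 to 0.20, adjusted p = 0.973), so that both a fall of 0.71 and a rise of 0.20 lie within the interval. With the slow fibre markers in the fit Tbc1d4 differed by 1.30 in STZ, SD and by 0.94 in STZ, BEZ, each against Con, SD.

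Tbc1d1, its relative, did not pass. Its values were 8.54, 8.29, 8.63, 8.44 and 8.61 in STZ, BEZ, 8.16, 8.96, 8.61, 8.87 and 8.50 in STZ, SD, and 8.33 to 8.93 with a median of 8.52 in Con, SD. STZ, SD and Con, SD both averaged 8.62, with an interval of the difference from -0.27 to 0.27, and STZ, BEZ differed from Con, SD by -0.12 (adjusted p = 0.572).

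Pairs of related genes were also set against each other on the same array, which takes out anything that moves an array as a whole, in 9 exact two-sided permutation tests adjusted together and called at an adjusted p under 0.1. Such a difference shows unequal change of 2 probe sets only. Slc2a4 minus Slc2a1 averaged 2.36 ± 0.21 in STZ, SD and 2.80 ± 0.13 in Con, SD (SD, n = 5 and 7), a difference of -0.45 (exact p = 0.00126, the smallest the 792 splits allow, adjusted p = 0.00568). In STZ, BEZ it averaged 2.57 ± 0.07 (SD, n = 5), 0.23 lower than Con, SD (-0.23, exact test, adjusted p = 0.0114) and 0.22 above STZ, SD (exact test, adjusted p = 0.102). This last difference passed without STZ, SD array 1 (0.26, exact test, adjusted p = 0.0714) or 4 (0.28, exact test, adjusted p = 0.0306). Neither STZ, SD nor STZ, BEZ overlapped with Con, SD in this measure, whereas Slc2a4 alone overlapped in both comparisons. The mice that overlapped on Slc2a4 alone had the highest Slc2a1 of their group. These were STZ, SD array 2 (Slc2a4 11.35, Slc2a1 9.25, pair 2.1) and STZ, BEZ array 3 (11.47, 8.83 and 2.64). The lack of overlap thus rests on Slc2a1 as well as on Slc2a4. Single genes did not overlap, in either direction, for 8.3% and 8.51% of all genes there, and the share of gene pairs was not counted. Tbc1d4 minus Tbc1d1 was higher in STZ, SD by 1.36 (exact test, adjusted p = 0.0114) and in STZ, BEZ by 1.22 (exact test, adjusted p = 0.00568), each against Con, SD, and STZ, BEZ and STZ, SD differed by -0.14 (exact test, adjusted p = 0.73).

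Hk2 minus Hk1 was first taken with the brightest Hk1 set, from which Hk1 could not be read. It was lower in STZ, SD than in Con, SD by 0.31 (-0.31, exact test, adjusted p = 0.0409) and higher in STZ, BEZ than in STZ, SD by 0.35 (exact test, adjusted p = 0.0595). The second call ended without STZ, SD array 2, 3 or 5 (0.32, 0.30 and 0.32, exact test, adjusted p = 0.119 each). With the Hk1 transcript set, an alternative chosen after seeing the data, it averaged 2.93 ± 0.21 in STZ, BEZ and 2.50 ± 0.16 in STZ, SD (SD, n = 5 each). These groups did not overlap (difference 0.43, exact p = 0.00794, the smallest the 252 splits allow, adjusted p = 0.0143), whereas Hk2 alone overlapped. Single genes did not overlap there for 1.16% of all genes, and the share of gene pairs was not counted. Against Con, SD, whose lowest value of this pair came from array 1, the STZ, SD difference with the transcript set was -0.32 and did not pass (exact test, adjusted p = 0.247).

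**Figure D4:**
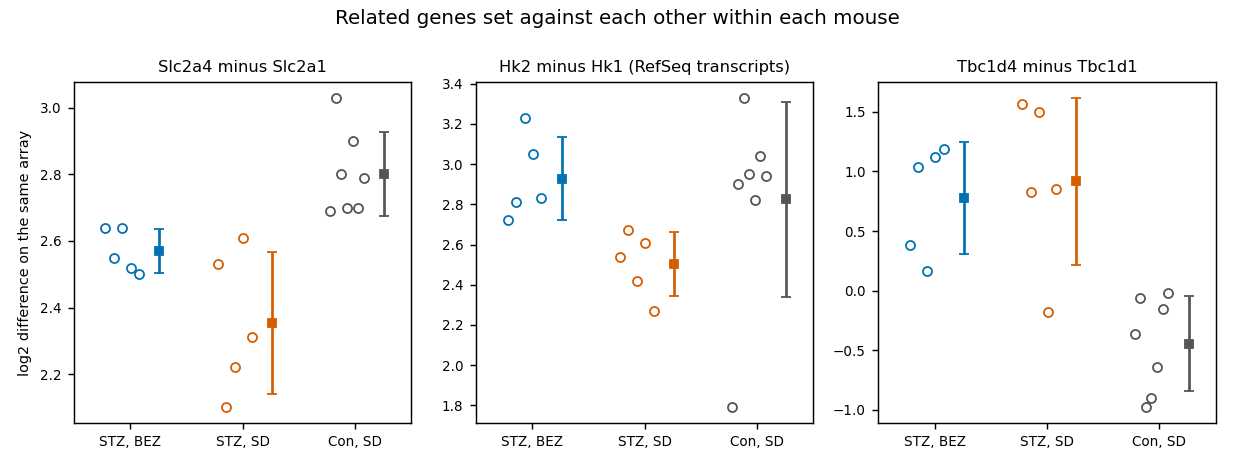
Log2 difference between 2 genes on the same array (vertical axis, a separate scale in each panel), for STZ, BEZ, STZ, SD and Con, SD from left to right; circles are mice and squares with bars are means ± SD. Slc2a4 minus Slc2a1 was lower than in any control in all mice given streptozotocin. Hk2 minus Hk1, here with the RefSeq transcript set chosen after the data were seen, did not overlap between STZ, BEZ and STZ, SD. The share of all gene pairs without overlap was not counted.

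Txnip rose slightly in diabetic muscle, with the least stable call of the 4. Its values were 12.27, 12.27, 12.34, 12.29 and 12.13 in STZ, BEZ and 12.48, 12.28, 12.42, 12.34 and 12.48 in STZ, SD, and Con, SD ran from 11.96 over a median of 12.24 to 12.41. The groups overlapped, and 3 STZ, SD mice were above every control. STZ, SD averaged 12.40 ± 0.09 and Con, SD 12.20 ± 0.18 (SD, n = 5 and 7), a rise of 0.20 ± 0.08 (interval 0.03 to 0.36, adjusted p = 0.0855), or 1.15-fold. Leaving out any 1 of Con, SD arrays 6 and 7 or STZ, SD arrays 1, 3 and 5 ended the call (adjusted p = 0.149, 0.149, 0.166, 0.151 and 0.173), as did leaving out STZ, BEZ array 2 (0.1), with differences down to 0.16. It also ended with the hepatocyte level in the fit (0.20, adjusted p = 0.105). STZ, BEZ averaged 12.26 ± 0.08 (SD, n = 5) and did not pass against STZ, SD (-0.14 ± 0.08, interval -0.32 to 0.04, adjusted p = 0.93) or Con, SD (0.06, adjusted p = 0.665).

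Of 14 genes of the Txnip, arrestin-domain and carbohydrate-response circuit, 3 rose and 0 fell in STZ, SD against Con, SD (21.4% called, against 25.8% of all genes). Itch, a ubiquitin ligase known to mark TXNIP for breakdown, rose by 0.38 ± 0.07 (adjusted p = 0.0011), and Arrdc2, an arrestin-domain relative of Txnip, by 1.28 ± 0.39 (adjusted p = 0.0295). Arrdc2 had 7.05, 7.97, 7.82, 9.20 and 9.02 in STZ, BEZ and 8.08, 9.73, 9.01, 7.18 and 8.17 in STZ, SD, and 6.60 to 7.72 in Con, SD, so that 1 mouse of each STZ group lay within the control range. Mlxipl, which encodes ChREBP, the glucose-responsive factor that binds the carbohydrate response pair, rose by 0.20 ± 0.07 (adjusted p = 0.0689). Its call ended without any 1 of Con, SD arrays 2, 3 and 4 or STZ, SD arrays 2, 3, 4 and 5, with adjusted p up to 0.174. Without Con, SD arrays 1, 3 and 4 Arrdc2 differed by 1.16 and just missed the threshold (adjusted p = 0.103). In STZ, BEZ against Con, SD Itch (0.35 ± 0.07, adjusted p = 0.00289) and Arrdc2 (1.06 ± 0.39, adjusted p = 0.0789) rose and Arrdc4, another relative, fell (-0.25 ± 0.09, adjusted p = 0.055). There the Arrdc2 call ended without any 1 of Con, SD arrays 3, 4 and 5 or STZ, BEZ arrays 2, 4 and 5 (adjusted p up to 0.205), and that of Arrdc4 without STZ, BEZ array 1 or 5 (adjusted p up to 0.16). With the slow fibre level in the fit neither passed (Arrdc2 0.87, adjusted p = 0.193, and Arrdc4 -0.22, adjusted p = 0.135).

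Genes of GLUT4 vesicle traffic moved in both directions. Of 32 measured, 7 rose and 6 fell in STZ, SD against Con, SD (40.6% called, against 25.8% of all genes, which were 13.9% higher and 11.9% lower). Their median difference was 0.07, beside -0.01 over all genes. Rala, a small GTPase of vesicle docking, had 9.13, 9.29, 9.20, 9.35 and 9.21 in STZ, BEZ and 9.15, 8.81, 8.81, 9.16 and 9.14 in STZ, SD, against 9.43 to 9.72 in Con, SD. All 10 mice given streptozotocin were below the controls, with a fall of 0.53 ± 0.07 in STZ, SD (adjusted p = 0.000122) and of 0.31 ± 0.07 in STZ, BEZ (adjusted p = 0.00982). Groups did not overlap downward for 3.43% of all genes in STZ, SD and for 2.5% in STZ, BEZ, each against Con, SD. The fusion proteins Vamp3 (-0.57 ± 0.10, adjusted p = 0.000669) and Snap23 (-0.35 ± 0.08, adjusted p = 0.00358) also fell in STZ, SD. Akt1, a kinase of the insulin pathway, rose by 0.47 ± 0.10 (adjusted p = 0.00267). In STZ, BEZ against Con, SD 7 rose and 4 fell (34.4% called, against 21.6% of all genes), among them Snap23 (-0.32 ± 0.08, adjusted p = 0.00844), Akt1 (0.37 ± 0.10, adjusted p = 0.0149) and Myo1c, a motor protein of these vesicles (0.29 ± 0.08, adjusted p = 0.0185). Vamp3 was lower there too (-0.34 ± 0.10, adjusted p = 0.0264). The Myo1c call ended without Con, SD arrays 1, 3 and 4 (0.17, adjusted p = 0.141).

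Among 11 measured genes listed for the kinases of Tbc1d1 and Tbc1d4, 2 rose and 1 fell in STZ, SD against Con, SD (27.3% called, against 25.8% of all genes). The list also holds AMPK subunits that are not kinases themselves, and Stk11, which acts on AMPK. Nuak1, an AMPK-related kinase, had 9.13, 9.28, 9.20, 8.94 and 9.13 in STZ, BEZ and 9.83, 9.89, 9.72, 9.27 and 9.20 in STZ, SD, against 8.91 to 9.10 in Con, SD. Its rise in STZ, SD was 0.59 ± 0.11 (adjusted p = 0.00105). In STZ, BEZ it did not pass against Con, SD (0.14 ± 0.11, adjusted p = 0.414) or STZ, SD (-0.449 ± 0.115, adjusted p = 0.649). Sik1, a salt-inducible kinase, rose by 0.58 ± 0.16 in STZ, SD (adjusted p = 0.0151) and by 0.72 ± 0.16 in STZ, BEZ (adjusted p = 0.005). Prkab2, the AMPK beta-2 subunit of muscle, fell by 0.55 ± 0.11 in STZ, SD (adjusted p = 0.00216) and by 0.32 ± 0.11 in STZ, BEZ (adjusted p = 0.0599). The second of these calls ended without Con, SD array 3 or STZ, BEZ array 2 or 5 (adjusted p = 0.101, 0.109 and 0.138). It also ended with the slow fibre level (-0.22, adjusted p = 0.188) or the hepatocyte level (adjusted p = 0.103) in the fit and with median centring (adjusted p = 0.102). Stk11, which encodes the AMPK kinase LKB1, rose in STZ, BEZ against Con, SD by 0.13 ± 0.05 (adjusted p = 0.0705), a call that ended without any 1 of Con, SD arrays 3 and 4 or STZ, BEZ arrays 3, 4 and 5 (adjusted p up to 0.169), without Con, SD arrays 1, 3 and 4 (adjusted p = 0.223) and with the hepatocyte level in the fit (adjusted p = 0.124).

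Regulators of Slc2a4 and Hk2 transcription rose more often than they fell, with 6 of 17 higher and 1 lower in STZ, SD against Con, SD and 10 higher and 0 lower in STZ, BEZ against Con, SD (higher for 13.9% and 13.1% of all genes). Foxo1, the factor that insulin keeps out of the nucleus, had 8.74, 8.73, 8.59, 8.97 and 8.89 in STZ, BEZ and 8.69, 9.69, 9.17, 8.63 and 8.68 in STZ, SD, against 8.12 to 8.41 in Con, SD. It rose by 0.72 ± 0.14 in STZ, SD (adjusted p = 0.00196), and so did Klf15, a Krüppel-like factor (0.88 ± 0.18, adjusted p = 0.00203), Sp1, the GC box factor (0.51 ± 0.07, adjusted p = 0.000166), and Mef2d, a factor of muscle genes (0.41 ± 0.08, adjusted p = 0.00129). Klf15 (0.75 ± 0.18, adjusted p = 0.00796), Sp1 (0.51 ± 0.07, adjusted p = 0.000287) and Mef2d (0.35 ± 0.08, adjusted p = 0.00569) were also higher in STZ, BEZ than in Con, SD. Foxo1 was higher there too (0.53, adjusted p = 0.0181).

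Srebf1, which encodes the lipogenic factor SREBP-1 that insulin induces, was the only 1 of the 92 other pathway genes that passed in STZ, BEZ against STZ, SD. Its values were 9.97, 9.97, 9.73, 9.70 and 9.60 in STZ, BEZ and 8.51, 8.49, 8.28, 9.12 and 8.77 in STZ, SD, against 8.71 to 9.22 in Con, SD. STZ, BEZ was above STZ, SD by 1.16 ± 0.13 (adjusted p = 0.000732) and above Con, SD by 0.88 ± 0.12 (adjusted p = 0.000206), with no overlap, as for 1.16% and 8.51% of all genes. Over all 6 lists 20 genes rose and 9 fell in STZ, SD against Con, SD (31.5% called, against 25.8% of all genes), and 24 rose and 6 fell in STZ, BEZ against Con, SD (32.6%, against 21.6%). The lists are of known pathway genes and were chosen with earlier results in view.

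**Figure D5:**
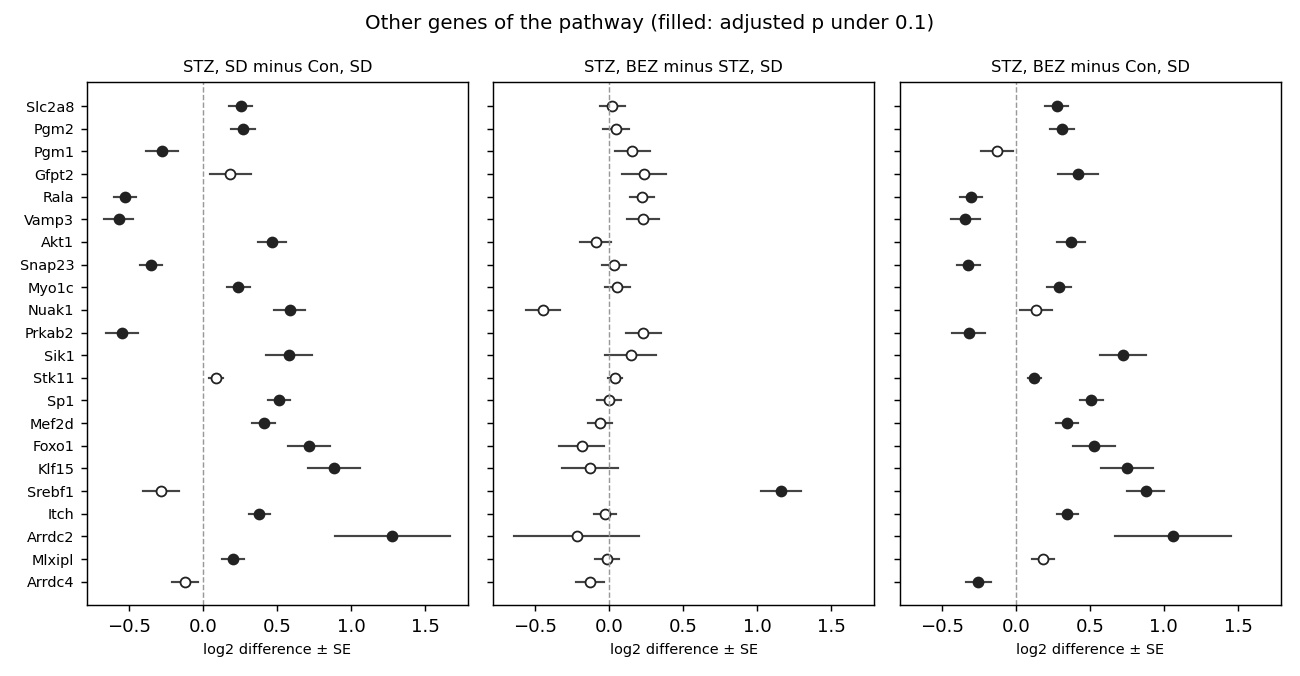
Log2 difference ± SE (horizontal axis) of 22 other pathway genes, up to 4 called genes a list with the smallest adjusted p in each comparison, in STZ, SD minus Con, SD, STZ, BEZ minus STZ, SD and STZ, BEZ minus Con, SD from left to right; filled points passed at an adjusted p under 0.1. Srebf1 (1.16) is the only filled point in the middle panel.

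For each of the 4 called genes the 3 genes most like it over the 17 arrays, by Pearson r, were named as a description. Group differences enter these values, as does everything the arrays share. Tbc1d4 was followed by Igf1r, the IGF-1 receptor (r = 0.975, rho = 0.973), Ppp1r1a, a phosphatase inhibitor (r = 0.971, rho = 0.941), and Il6st, the shared receptor subunit of the interleukin-6 family (r = 0.971, rho = 0.926). After the group means were taken out, r with Igf1r was 0.922. Slc2a4 was followed by Cyp27a1 (r = 0.893), Vldlr (r = 0.875) and Samm50 (r = 0.87), and Hk2 by Otud3 (r = 0.904), Gatb (r = 0.892) and Uqcrfs1, a subunit of mitochondrial Complex III (r = 0.882). By this r Txnip had the weakest neighbours, Eid2 (r = 0.805), Pdgfb (r = 0.792) and Cmtm4 (r = 0.761). With the group means taken out, r was 0.769, 0.709 and 0.814 for these. It was 0.767, 0.714 and 0.692 for the neighbours of Slc2a4.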

How the data were processed

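Skeletal muscle RNA of 17 mice was labelled with biotin and measured on Affymetrix arrays (Mouse Gene 1.0 ST). The authors deposited log2 expression values from RMA, which corrects the background, makes the arrays' distributions equal by quantiles and sums the probes by median polish. The submitters' processing notes give Affymetrix Expression Console 1.2 as the program. Values lay between 2.76 and 14.6 and array medians between 6.22 and 6.32, and a common shift of most genes would be hidden by the quantile step. Of 35556 probe sets, 21789 had 1 gene symbol. The probe set with the highest mean over 17 arrays was kept for each gene (999 genes had several), which left 19938 genes. Groups came from the labels.

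All 17 arrays entered 1 fit with limma 3.58.1 in R 4.3.3 (lmFit, eBayes, Benjamini-Hochberg over all genes, called at adjusted p under 0.1). An alternative was SAM (significance analysis of microarrays), which the methods name, with 100 permutations at a false discovery rate of 10%. Differences between 2 genes on 1 array were compared by exact permutation. The scripts were tested on simulated data.

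The members and lists were chosen with earlier results of these data known. Named were all 8 members, any other Slc2a or hexokinase gene, up to 4 called genes a list and comparison with the smallest adjusted p, and the 3 genes most like each member called in STZ, SD against Con, SD. Of 99 other listed pathway genes, 92 were measured under 1 symbol. The Hk1 transcript probe set and the testis list were added after the data were seen. Alternatives changed the normalization, filter, probe sets, test, samples and covariates. Scan dates were not used here, so no batch was tested.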

Additional observations from a re-analysis of the deposited data

Results flagged for a closer look

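In groups of 4 to 10 mice, the highest or lowest value stood far from the others in 3 of 27 groups tested, and chance flags about 1 group in 20. Slc2a4 in STZ, BEZ array 3 was 11.47, when the next mouse of the group had 11.31, just past the limit for 5 samples. The brightest Hk1 probe set in Con, SD array 6 was 11.32, when the next had 11.66. The Hk1 transcript probe set in Con, SD array 1 was 7.925, when the next had 6.981, on the array with the high hepatocyte and testis levels.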

How the results depend on the processing

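In total 31 alternatives were run. Of the 744 values they gave for the 8 genes in the 3 comparisons, 726 kept their side of the threshold without a called value changing sign, 9 lost the call and 9 gained one. In 28 of the 726, all of them uncalled, the sign turned. Slc2a4, Hk2 and Tbc1d4 in STZ, SD against Con, SD passed in all 31, with differences of -0.44 to -0.30, -0.48 to -0.35 and 1.22 to 1.57, and Tbc1d4 passed in all 31 in STZ, BEZ against Con, SD (0.94 to 1.23). Txnip lost its call in 9, with adjusted p up to 0.346. Called members numbered 3 to 4 in STZ, SD against Con, SD and 0 in STZ, BEZ against STZ, SD throughout. In STZ, BEZ against Con, SD there were 2 in place of 1 with only the groups compared in the fit, with array weights, without Con, SD arrays 1, 3 and 4, and in the fit with the replicate number as a block. Leaving out 1 array gave 1 to 2 there. The second gene was Slc2a4, except with the block. There it was the brightest Hk1 probe set (-0.18, adjusted p = 0.0855), from which Hk1 could not be read. Other pathway genes called fell to 17 in place of 30 in that comparison with the hepatocyte level as a covariate. Leaving out 1 array gave 25 to 32 in STZ, SD against Con, SD and 20 to 31 in STZ, BEZ against Con, SD. The cause of these changes was not tested.

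Deviations of same-numbered arrays in different groups correlated at -0.239 to 0.083. These values alone cannot show whether replicate numbers pair the mice. With the number as a block, Con, SD arrays 6 and 7 have no partner. Slc2a4 differed by -0.33, Hk2 by -0.44, Tbc1d4 by 1.44 and Txnip by 0.10 (adjusted p = 0.346) in STZ, SD against Con, SD. The brightest Hk1 probe set, from which Hk1 could not be read, passed (-0.21, adjusted p = 0.0504). The block also ended the calls of Pgm1 and Mlxipl in that comparison and of Prkab2, Vamp3, Arrdc2, Stk11, Gfpt2 and Arrdc4 in STZ, BEZ against Con, SD.

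The groups hold 5 to 7 mice, and 7 listed pathway genes were not analysed here. No value here separates the bezafibrate strengths.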
